A study of Mus musculus with 8 samples.

Results

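Cell death genes were followed in mouse bone marrow derived macrophages through 8 listed genes: the inflammatory caspase genes Casp1, Casp4 and Casp12, the apoptotic caspase genes Casp6 and Casp8, the kinase genes Ripk1 and Ripk3, and the death receptor gene Fas. All probe sets whose platform annotation named 1 of these genes were taken. This gave 8 probe sets for 7 genes, of 22626 probe sets for 12393 genes on the arrays without controls, with 2 probe sets for Casp12 and 1 for each of the others. The annotation used here named no probe set for Ripk1, so Ripk1 has no value below. Total RNA had been measured on 8 one-colour arrays with 1 array per group, and the values are linear signal intensities.

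Marrow cells had been cultured for 7 days in 50 ng/ml of M-CSF, a growth factor that drives them to become macrophages. Each Vdr-/- group was set beside a wild-type group. Vdr-/- cells lack a working vitamin D receptor gene, and the label of their untreated array names the allele Vdr tm1 Rge. In each genotype the cells were given IFN-gamma together with calcitriol, IFN-gamma alone, calcitriol alone or no treatment. IFN-gamma is a cytokine that activates macrophages against microbes, and calcitriol (1alpha,25(OH)2D3) is the active hormone form of vitamin D. Treatment lasted between 24 and 48 hours, without an exact time per array. All groups share the M-CSF culture, and the labels used here name no strain or age of the mice and no dose of either agent. With 1 array per group there were no replicates. The spread behind each test came from the disagreement between array pairs that repeat a contrast. The fits (limma) drew this toward the spread of other probe sets of like signal. A p-value thus does not measure the disagreement of a gene's own pairs alone. An effect of genotype cannot be told apart from one of the animal or culture.

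Macrophages can die in several programmed ways that share this machinery. In pyroptosis, inflammasomes activate caspase-1, and lipopolysaccharide inside the cell activates the mouse caspase encoded by Casp4 (also called caspase-11), after which pores open in the membrane. In apoptosis, death receptors such as Fas recruit caspase-8, which activates executioner caspases. When caspase-8 is not active, the kinases RIPK1 and RIPK3 can assemble a complex that kills the cell by necroptosis. IFN-gamma is known as an inducer of several of these genes in macrophages.

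Before the results, the arrays were checked. Median signal per array ran from 53.4 to 68.2. The array labelled wild-type calcitriol and the array labelled Vdr-/- untreated stood apart from the other 6. Their 3'/5' ratios of the Gapdh control, which rise when labelled RNA is truncated, were 7.67 and 4.82, against 0.853 to 3.06 on the other arrays. Vdr, the targeted gene, went against the labels of the untreated arrays. Its 2 probe sets read 90.3 and 63.2 on the array labelled Vdr-/- untreated and 6.7 and 5.3 on the array labelled wild-type untreated. In the other 3 treatments both read lower in Vdr-/-. Whether these probe sets lie inside the deletion was not given in the sources used here. They do not settle the labels. Each calcitriol contrast without IFN-gamma rests on an array labelled untreated. So does each IFN-gamma contrast without calcitriol, and the genotype contrast without treatment rests on both. The 2 brightest of 7 macrophage markers were high on every array: Csf1r read 9769 to 23761 and Lyz2 read 16652 to 28243 over the 8 arrays. Of the others, Fcgr1 ran from 145.2 to 3897 and Itgam from 80 to 977.6, both lowest on the wild-type calcitriol array.

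Casp1, Casp4 and Casp12 are neighbours on mouse chromosome 9, with no other gene of the RefSeq annotation (GRCm38.p6) between them. Casp6 lies on chromosome 3, Casp8 on 1, Ripk3 on 14 and Fas on 19. The 250 bases before the annotated start of each gene (RefSeq, GRCm38.p6) were searched on both strands for 5 motifs. They were the gamma-activated site GAS (TTCNNNGAA), an interferon regulatory factor core (GAAANNGAA), the ISRE core, which is that core with 1 more A at its end so that each match also holds the shorter one, a vitamin D receptor half-site (AGGTCA) and the DR3 element, a vitamin D receptor site of a pair of such half-sites. GAS letters stood in the windows of Casp12 (2 matches), Fas (1 match) and 1 of the 2 windows of Ripk1. They stand in 7.02% of all 32851 windows of that length in the table. No window of the 8 genes held the interferon regulatory factor core, the ISRE core, the AGGTCA half-site or a DR3 element, which stand in 7.13%, 2.98%, 14% and 0.0396% of all windows. A match is a description of letters and not a bound site, and no match says only that these letters are not in the window.

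The windows of Casp12 and Fas are shown because they hold the GAS letters, in capitals. Those of Casp4, neighbour of Casp12, and of Ripk3, the gene called in the calcitriol test below, are shown beside them. They run 5′ to 3′ on the gene's strand, at chr9:5345226-5345475 (+) for Casp12, chr19:34290409-34290658 (+) for Fas, chr9:5308599-5308848 (+) for Casp4 and chr14:55788858-55789107 (-) for Ripk3.
Casp12: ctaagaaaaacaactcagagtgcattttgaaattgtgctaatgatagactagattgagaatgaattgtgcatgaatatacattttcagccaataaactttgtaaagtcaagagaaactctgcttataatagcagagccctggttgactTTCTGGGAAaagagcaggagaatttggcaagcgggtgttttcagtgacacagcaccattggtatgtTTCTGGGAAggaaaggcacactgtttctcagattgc
Fas: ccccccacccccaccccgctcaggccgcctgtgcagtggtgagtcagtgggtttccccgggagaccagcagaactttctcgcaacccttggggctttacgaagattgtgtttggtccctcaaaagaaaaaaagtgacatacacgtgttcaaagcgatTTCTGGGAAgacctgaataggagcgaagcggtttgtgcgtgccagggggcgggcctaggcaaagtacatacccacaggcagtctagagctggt
Casp4: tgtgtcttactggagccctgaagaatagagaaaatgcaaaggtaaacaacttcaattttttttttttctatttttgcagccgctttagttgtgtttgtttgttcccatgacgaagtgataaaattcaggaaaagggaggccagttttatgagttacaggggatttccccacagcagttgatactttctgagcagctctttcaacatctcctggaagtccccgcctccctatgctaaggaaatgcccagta
Ripk3: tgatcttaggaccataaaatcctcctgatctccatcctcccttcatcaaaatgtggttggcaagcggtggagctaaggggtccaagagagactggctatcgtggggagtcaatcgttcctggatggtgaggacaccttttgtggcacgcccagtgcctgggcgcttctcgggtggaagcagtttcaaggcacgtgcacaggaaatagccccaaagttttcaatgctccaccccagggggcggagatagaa

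The 4 arrays with IFN-gamma were each set against their partner without it, to ask whether the cytokine changes these genes. No member passed the test: limma called 0 of the 7 member probe sets tested, against 3.43% of all 18058 tested, while 4 of the 7 had an unadjusted p under 0.05 (2244 of all tested). A floor of 15.5 replaced lower signals (the 25th percentile over all arrays), and only probe sets reaching 59.1, the median over all arrays, on some array were tested. The second Casp12 probe set, at most 55.1, missed that filter. As labelled, Casp1, Casp12, Ripk3 and Fas were higher with IFN-gamma in all 4 pairs, 4 of 7 members against 7.55% of tested probe sets. Lower in all 4 were 0 of 7, against 10.4%. Ripk3 is in this count only with the untreated labels as given. Casp12 and Fas reached the filter only on arrays with IFN-gamma, which favours a higher value there, so nothing is read from this count. The median change over all tested probe sets was -0.08 log2.

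Casp1, whose product cleaves the precursors of interleukin-1 beta and interleukin-18, read 536.6 and 499.2 with IFN-gamma in Vdr-/- cells and 296.8 and 554.6 in wild-type cells (with calcitriol, then without). Without IFN-gamma it read 420.1 and 270 in Vdr-/- cells and 271.8 and 231.8 in wild-type cells. The ranges overlap because the wild-type array with both agents lies below the Vdr-/- array with calcitriol alone. The fitted change of Casp1 was 0.66 log2 (SE 0.265, 95% interval 0.11 to 1.2, limma adjusted p = 0.265), a 1.58-fold difference. Without the 2 untreated arrays, in an additive fit, it was 0.24 log2.

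Casp4 read 354.2 and 273.7 with IFN-gamma in Vdr-/- cells and 99.7 and 361.5 in wild-type cells, again with calcitriol first. Without IFN-gamma it read 226.5 and 66.4 in Vdr-/- cells and 134.5 and 66.4 in wild-type cells. In the pairs without calcitriol Casp4 was 4.12-fold higher with IFN-gamma in Vdr-/- and 5.44-fold higher in wild type. In the wild-type pair with calcitriol it was lower with IFN-gamma, by 0.43 log2, the only 1 of its 4 pairs to go that way. The fitted change of Casp4 was 1.18 log2 (SE 0.408, 95% interval 0.33 to 2.02, limma adjusted p = 0.151). Without the 2 untreated arrays, in an additive fit, it was 0.11 log2 (adjusted p = 0.987).

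Casp12, an inflammatory caspase of rodents also studied in endoplasmic reticulum stress, was the member whose leading probe set separated the arrays by IFN-gamma. It read 83.6 and 88.5 with IFN-gamma in Vdr-/- cells and 36.9 and 29.9 in wild-type cells. Without IFN-gamma it read 9 and 7.9 in Vdr-/- cells and 3.6 and 4.3 in wild-type cells, all under the floor. It was the 1 member of 7 whose 4 arrays with IFN-gamma all lay above the 4 without, which held for 3.07% of tested probe sets. It passed the filter only through the 2 Vdr-/- arrays with IFN-gamma, so this separation is a description and supports nothing. With the floor in place of the low signals it was at least 3.45-fold higher with IFN-gamma (1.79 log2, limma adjusted p = 0.181). The size depends on the floor: it was 0.55 log2 with a floor of 40.1 and 3.01 log2 with a floor of 5.2. The second Casp12 probe set was also higher with IFN-gamma in all 4 pairs, by 0.05 to 0.86 log2 after the floor was set, but read only 28.1, 16.1, 55.1 and 33.1 with IFN-gamma and 2.5, 4.1, 41.6 and 22.2 without, in the same order of arrays, so its groups overlap.

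Ripk3, the kinase that phosphorylates the necroptosis effector MLKL, read 190.4 and 129.2 with IFN-gamma in Vdr-/- cells and 372.9 and 89.4 in wild-type cells. Without IFN-gamma it read 60.4 and 114.4 in Vdr-/- cells and 175.2 and 3.7 in wild-type cells. The groups overlap, and the value on the array labelled wild-type untreated is the only one of the 8 under the floor. Ripk3 too depends on the untreated labels that Vdr went against. Were they exchanged, the wild-type pair without calcitriol would read 89.4 with IFN-gamma and 114.4 without, and so be lower with IFN-gamma. The fitted change of Ripk3 was 1.36 log2 (SE 0.447, 95% interval 0.44 to 2.29, limma adjusted p = 0.118). Without the 2 arrays of high 3'/5' ratio it was 2.47 log2 (adjusted p = 0.28). Without the wild-type pair lacking calcitriol, which holds the value under the floor, it was 0.97 log2. The size also depends on the floor, at 1.02 log2 with the higher and 1.76 log2 with the lower one.

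Fas, the receptor for Fas ligand, read 40 and 58.3 with IFN-gamma in Vdr-/- cells and 67.4 and 45.1 in wild-type cells. Without IFN-gamma it read 5.8 and 10 in Vdr-/- cells, both under the floor, and 55.7 and 20.4 in wild-type cells. The fitted change of Fas was 1.17 log2 (SE 0.641, 95% interval -0.15 to 2.5, limma adjusted p = 0.491). It too depends on the floor, at 0.25 log2 with the higher and 1.69 log2 with the lower one. Fasl, the gene of its ligand, was under the floor on 3 of the 8 arrays and had a fitted change of -0.42 log2 (adjusted p = 0.871). It is named here after its values were seen.

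The 2 apoptotic caspase genes had the smallest fitted changes of the 7. Casp8, which starts the death receptor pathway and holds back necroptosis, read 295.5 to 465.2 with IFN-gamma and 177.5 to 503.1 without. Its fitted change was 0.24 log2 (95% interval -0.32 to 0.79, limma adjusted p = 0.798). Casp6, an executioner caspase that also cleaves nuclear lamins, read 100.6 to 204.5 with IFN-gamma and 142.8 to 233.8 without, a fitted change of -0.24 log2 (95% interval -0.93 to 0.45, adjusted p = 0.836). These intervals allow changes of either sign.

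**Figure D1:**
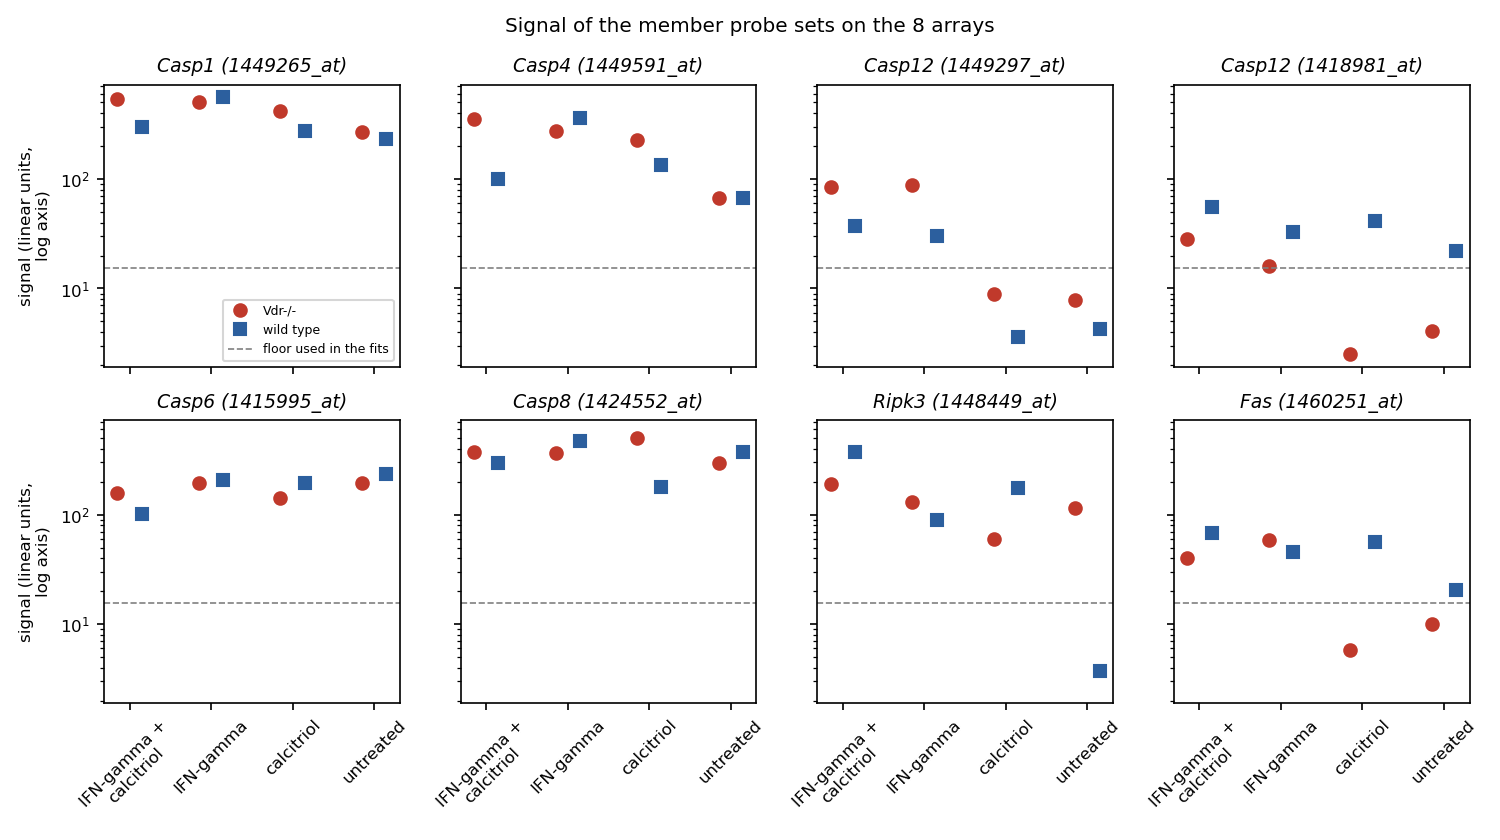
Signal (linear units on a log axis) of the 8 member probe sets on each of the 8 arrays, with Vdr-/- as red circles, wild type as blue squares and the floor of 15.5 as a dashed line. The leading Casp12 probe set lies above the floor on the 4 arrays with IFN-gamma and below it on the other 4, and Ripk3 reads 3.7 on the array labelled wild-type untreated.

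**Figure D2:**
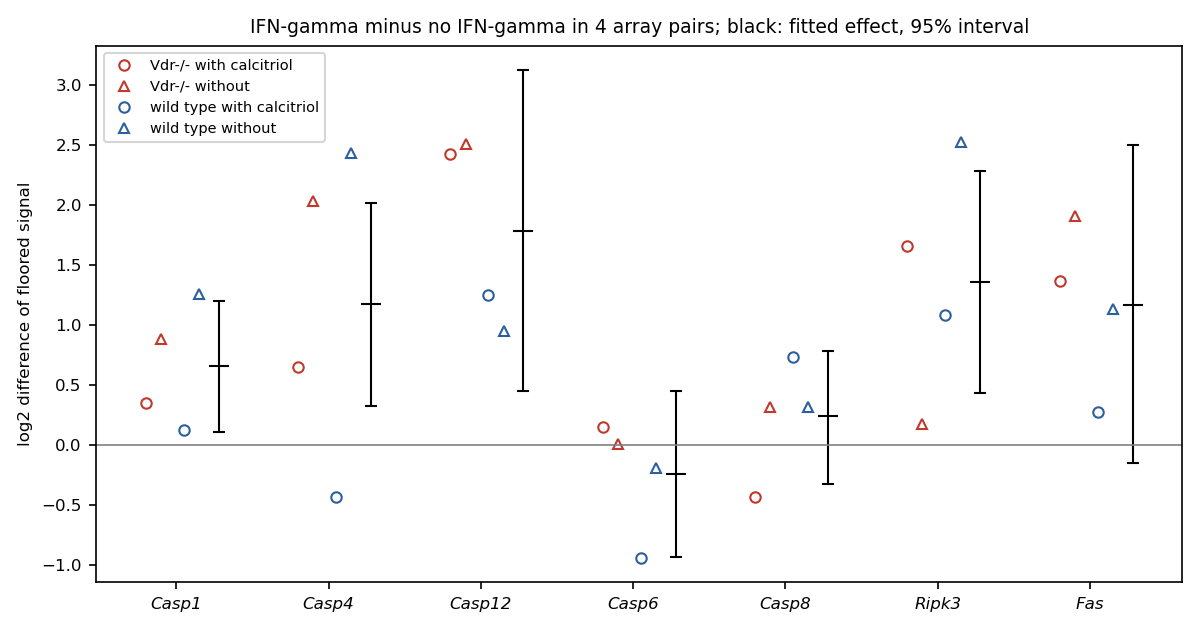
Log2 difference of floored signal, IFN-gamma minus no IFN-gamma, in each of the 4 array pairs (open symbols) and the fitted effect with its 95% interval (black) for the leading probe set of each of the 7 genes. With the arrays paired as labelled, all 4 pairs lie above 0 for Casp1, Casp12, Ripk3 and Fas. The wild-type pair with calcitriol lies below 0 for Casp4.

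Markers of other cells differed between the same arrays. Summed signal of the 5 stromal markers was 89.6 to 244 with IFN-gamma and 336 to 527 without. All of them but Dcn were lower with IFN-gamma in every array pair. The 7 neutrophil and precursor markers summed to 201 to 281 with IFN-gamma and 304 to 423 without. Of these, Elane, Camp and S100a9 were lower with IFN-gamma in every pair. S100a8, the brightest on most arrays, and Mpo, Ltf and Ngp went both ways between pairs, so the neutrophil sum does not describe its list. The 7 macrophage markers summed to 35300 to 51000 with IFN-gamma and 51700 to 58300 without. Csf1r and Lyz2 made most of that sum, so it does not describe the list. Lyz2 was lower with IFN-gamma in every array pair. Fcgr1 was higher in every pair, at 557.8 to 3897 with IFN-gamma and 145.2 to 1446.7 without. The remaining macrophage markers, Csf1r among them, went both ways between pairs. The 5 lymphocyte and NK markers summed to 68.5 to 214 with IFN-gamma and 51.9 to 189 without, and no marker was under the floor on all 8 arrays. The part of these markers in the members' values was not tested. In such bulk RNA, fewer cells of a type and less RNA per cell cannot be told apart.

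Other genes of the same pathways, from 7 lists of 77 genes of which 57 were tested, were read in the same test. Of these 57, 6 rose and 1 fell with IFN-gamma, beside the 2.15% and 1.27% of all tested probe sets called in each direction. The rises and the fall stood in 5 of the lists.

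Among 3 necroptosis partners tested 1 rose. Zbp1, a nucleic acid sensor that binds RIPK3, read 1828.4 and 839.6 with IFN-gamma in Vdr-/- cells and 1021.4 and 2207.9 in wild-type cells, against 201.4 and 104.2 in Vdr-/- cells and 83 and 51.1 in wild-type cells without it. Its change was 3.81 log2 (14-fold, SE 0.319, limma adjusted p = 9.27e-09), and its groups do not overlap. Of 16 genes of death receptors, ligands and adaptors, Sharpin, a subunit of the linear ubiquitin ligase that restrains cell death downstream of TNF, rose by 1.23 log2 (adjusted p = 0.00388). In the same list Tnfrsf1a, the main TNF death receptor, rose by 1.00 log2 (0.00484), while Tnfrsf1b, the second TNF receptor, fell by 0.99 log2 (0.0232). Tnf itself, named after its values were seen, had a change of 1.43 log2 (adjusted p = 0.0696).

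Of 11 inflammasome and pyroptosis genes 1 rose, Pycard, the adaptor that links sensors to caspase-1, by 1.00 log2 (limma adjusted p = 0.00856). Of the same list, and named after their values were seen, the sensor gene Nlrp3 had 0.94 log2 (0.392), and the caspase-1 substrate genes Il18 and Il1b had -0.01 (0.996) and -0.33 (0.894). Of 12 BCL-2 family genes 1 rose, Bid, whose product caspase-8 cleaves to reach the mitochondria, by 1.57 log2 (0.00198). Of 6 apoptosome genes 1 rose, the cytochrome c gene Cycs, by 0.82 log2 (0.0453). None passed among 2 other caspase genes, Casp2 (0.03 log2) and Casp9 (-0.56 log2), or among 7 genes of endoplasmic reticulum stress. List medians ran from -0.26 log2 for the other caspases to 0.91 log2 for the necroptosis partners, beside -0.08 over all tested probe sets. Without the 2 arrays of high 3'/5' ratio, in an additive fit on 6 arrays, none of the 57 was called, and Zbp1 still read 3.75 log2 (adjusted p = 0.196). Without the 2 untreated arrays it read 3.40 log2 (0.393), and again none was called. Leaving out the Vdr-/- pair without calcitriol, the wild-type pair with it or the wild-type pair without it left 1 call each, that of Zbp1.

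**Figure D3:**
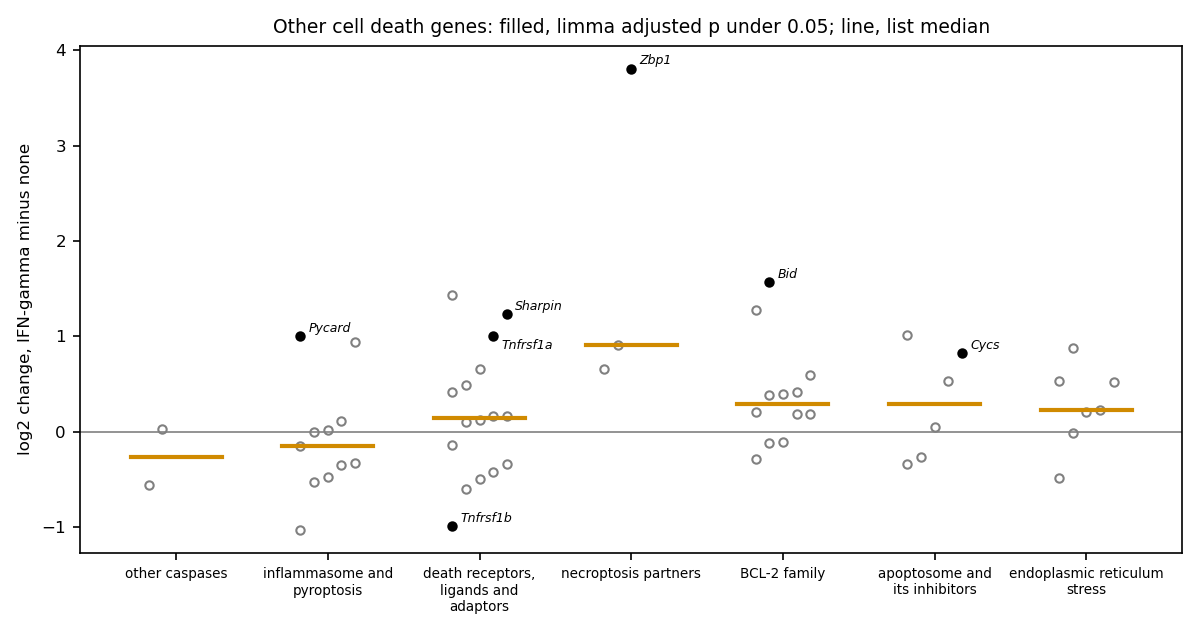
Log2 change with IFN-gamma for the 57 tested genes of the 7 lists, 1 point per gene, filled where the limma adjusted p was under 0.05, with the list median as a line. Zbp1 stands at 3.81 log2 and the other called genes lie between -0.99 and 1.57 log2.

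Calcitriol was compared with no calcitriol in each genotype to ask what the hormone does with and without its receptor. In Vdr-/- cells 0 of the 7 member probe sets were called, against 0.194% of all tested, and 0 had an unadjusted p under 0.05 (1147 of all tested). In wild-type cells 1 of 7 was called, Ripk3, which was higher with calcitriol, against 0.576% of all tested in either direction, 0.188% higher and 0.388% lower.

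Ripk3 read 372.9 with calcitriol and 89.4 without it in wild-type cells given IFN-gamma, which is 4.17-fold. Without IFN-gamma it read 175.2 with calcitriol and 3.7 on the array labelled untreated, at least 11.3-fold against the floor. In Vdr-/- cells it read 190.4 with calcitriol and 129.2 without under IFN-gamma, and 60.4 with calcitriol and 114.4 without it in cells not given IFN-gamma. Both wild-type pairs were higher with calcitriol, while the Vdr-/- pairs went opposite ways. This rests on the untreated labels that Vdr went against. Were those 2 labels exchanged, Ripk3 without IFN-gamma would read 60.4 with calcitriol and 3.7 without in Vdr-/-, and 175.2 with calcitriol and 114.4 without in wild type, so that all 4 pairs would be higher with calcitriol.

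The fitted rise of Ripk3 in wild type was 2.78 log2 (SE 0.637, 95% interval 1.46 to 4.1, limma adjusted p = 0.0424). In Vdr-/- cells the value was -0.18 log2 (SE 0.637, 95% interval -1.5 to 1.14, adjusted p = 0.995). The difference between the genotypes, Vdr-/- minus wild type, was -2.96 log2 (SE 0.9, 95% interval -4.82 to -1.1, adjusted p = 0.117) and did not pass. It was -1.50 log2 without the 2 arrays of high 3'/5' ratio (0.729) and -1.78 log2 without the 2 untreated arrays (0.83). The call in wild type was lost under 16 of 17 alternatives, with the change at 2.06 to 3.57 log2 and the adjusted p at 0.041 to 0.844. Without the 2 arrays of high 3'/5' ratio it was 2.28 log2 (0.599), and without the 2 untreated arrays 2.20 log2 (0.844).

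Other measures differed between some of the same arrays, without following Ripk3 over all 8. The array labelled wild-type untreated, lowest for Ripk3, was also low for both Vdr probe sets, and the wild-type array with both agents was highest for Ripk3 and for both, at 226.7 and 385.9. The lowest readings of the Vdr probe sets, 2.6 and 2.5, were on the Vdr-/- arrays with calcitriol alone and with IFN-gamma alone. There Ripk3 read 60.4 and 129.2. In wild type the Gapdh 3'/5' ratio was 7.67 with calcitriol and 1.11 without it in cells not given IFN-gamma, and 1.65 with calcitriol and 1.04 without it under IFN-gamma. The summed signal of 5 dendritic cell markers in wild type was 1320 to 1450 with calcitriol and 369 to 825 without, of which Itgax made 1243 and 1279 with calcitriol and 652.7 and 263.4 without. Cd209a and Ccr7 were lower with calcitriol in both wild-type pairs, and Flt3 and Zbtb46 went opposite ways between them. The sum thus describes Itgax and not the list. The part of these measures in the Ripk3 result was not tested.

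Casp8 went the other way in wild type. It read 295.5 with calcitriol and 465.2 without under IFN-gamma, and 177.5 with calcitriol and 373.1 without it in cells not given IFN-gamma, so it was lower in both pairs. In Vdr-/- cells it read 373.6 with calcitriol and 365.7 without under IFN-gamma, and 503.1 with calcitriol and 292.7 without it in cells not given IFN-gamma. Being lower in both wild-type pairs and higher in both Vdr-/- pairs held for 1 of 7 members and 8.35% of tested probe sets. The fitted Casp8 change was 0.41 log2 in Vdr-/- (95% interval -0.38 to 1.2, limma adjusted p = 0.935) and -0.86 log2 in wild type (95% interval -1.65 to -0.07, adjusted p = 0.44). Their difference, Vdr-/- minus wild type, was 1.27 log2 (SE 0.541, adjusted p = 0.336) and did not pass.

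Casp4 and Casp1 differed between the 2 wild-type pairs. Under IFN-gamma, Casp4 read 99.7 with calcitriol and 361.5 without, 3.63-fold lower, while in cells not given IFN-gamma it read 134.5 with calcitriol and 66.4 without, which is 2.03-fold higher. Casp1 read 296.8 with calcitriol and 554.6 without under IFN-gamma, 1.87-fold lower, and 271.8 with calcitriol and 231.8 without it in cells not given IFN-gamma. In Vdr-/- cells Casp4 was higher with calcitriol in both pairs, by 0.37 log2 under IFN-gamma and 1.77 log2 without it, and Casp1 by 0.10 and 0.64 log2. The fitted Casp4 change was 1.07 log2 in Vdr-/- (limma adjusted p = 0.865) and -0.42 log2 in wild type (0.839), and that of Casp1 was 0.37 log2 in Vdr-/- (0.941) and -0.34 log2 in wild type (0.792). Without the 2 untreated arrays the Casp4 values were 0.10 log2 in Vdr-/- and -1.59 log2 in wild type, and without the 2 arrays of high 3'/5' ratio the wild-type value was -1.41 log2.

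Of the other members, Casp6 was lower with calcitriol in all 4 pairs, by 0.27 to 1.02 log2, with fitted changes of -0.37 log2 in Vdr-/- (95% interval -1.35 to 0.62) and -0.65 log2 in wild type (95% interval -1.64 to 0.34). How many of all tested probe sets were lower in all 4 was not counted, so nothing is read from it. Fas had -0.27 log2 in Vdr-/- (limma adjusted p = 0.995) and 1.01 log2 in wild type (0.74). Fas passed the filter only through the wild-type array with both agents, which favours a higher value there. The leading Casp12 probe set was under the floor with and without calcitriol in cells not given IFN-gamma, and under IFN-gamma read 83.6 with calcitriol and 88.5 without in Vdr-/-, and 36.9 with calcitriol and 29.9 without in wild type. Of the 7 tested members, 3 were higher in both Vdr-/- pairs (21.6% of all tested probe sets) and 2 in both wild-type pairs (26.8%), while 1 was lower in both Vdr-/- pairs (27.8%) and 2 in both wild-type pairs (22.9%). Of the 57 tested genes of the other lists 0 were called for calcitriol in either genotype.

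The difference of the calcitriol effect between genotypes was called for 0 of the 7 members, against 1.5% of all tested probe sets (1.33% higher and 0.172% lower), and 2 of the 7 had an unadjusted p under 0.05 (2196 of all tested). The 2 were Ripk3 and Casp8, whose differences have opposite signs.

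**Figure D4:**
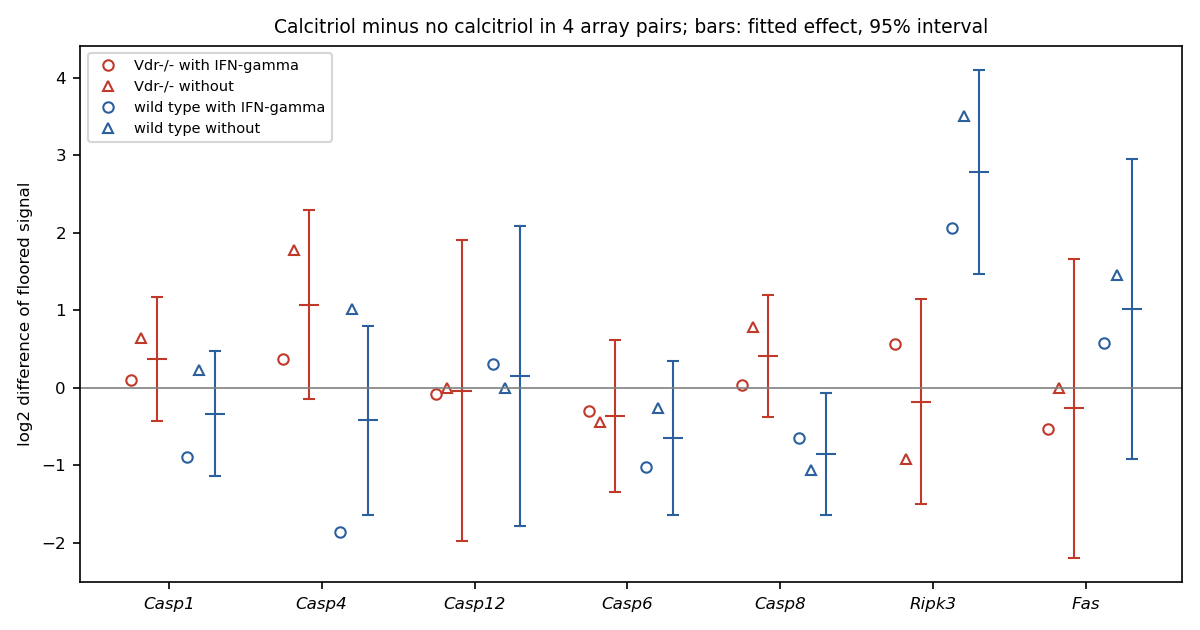
Log2 difference of floored signal, calcitriol minus no calcitriol, in each array pair (open symbols) and the fitted effect with its 95% interval, for Vdr-/- (red) left of wild type (blue). The wild-type Ripk3 pairs stand at 2.06 and 3.5 log2, and both wild-type Casp8 pairs lie below 0.

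Among the 4 arrays with IFN-gamma, the wild-type array with both agents, where receptor and ligand are both present, gave the lowest value for Casp1, Casp4, Casp6 and Casp8. It gave the highest for Ripk3 and Fas. Fas passed the filter only through this array, so its place there supports nothing. Casp6 read 100.6 on it and 158.8 to 204.5 on the other 3, Casp4 read 99.7 against 273.7 to 361.5, and Casp1 read 296.8 against 499.2 to 554.6. The array was lowest of the 4 for 4 of 7 members and 23.3% of all tested probe sets, and highest for 2 of 7 and 29.2%. It is a single array, so no test was made. On it the macrophage markers summed to 35300, the lowest of the 8 arrays. That sum is mostly Csf1r and Lyz2 and does not describe the list. Csf1r (9768.9) and Mertk (561.5) were at their lowest there, while Adgre1, Cd68, Fcgr1, Itgam and Lyz2 were not.

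Genotype was compared over the 4 treatment pairs, Vdr-/- minus wild type. The untreated pair enters with the labels that Vdr went against. In that pair Ripk3 was 2.88 log2 higher in Vdr-/-, and would be 2.88 log2 lower with the labels exchanged. Limma called 0 of the 7 members and 0% of all tested probe sets, with 0 of 7 and 611 of all under an unadjusted p of 0.05. None of the 7 tested probe sets was higher or lower in Vdr-/- in all 4 pairs, against 4.37% and 4.66% of tested probe sets, and 0 had groups that did not overlap, against 0.93% higher and 1.27% lower. The fitted differences ran from -0.66 log2 for Fas (95% interval -2.04 to 0.73) to 0.69 log2 for the leading Casp12 probe set (95% interval -0.69 to 2.06). Each had a limma adjusted p of 0.999. That Casp12 probe set passed the filter only through Vdr-/- arrays, and Fas only through a wild-type array. The filter thus favours the sign that each shows, and nothing is read from these 2 values.

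The 2 Casp12 probe sets disagreed on genotype. Under IFN-gamma the leading one read 83.6 and 88.5 in Vdr-/- cells and 36.9 and 29.9 in wild-type cells, so it was 2.27-fold and 2.96-fold higher in Vdr-/-. The second read 28.1 and 16.1 in Vdr-/- cells and 55.1 and 33.1 in wild-type cells, 1.96-fold and 2.06-fold lower in Vdr-/-. It was lower in Vdr-/- in the other 2 treatments too, at 2.5 and 4.1 in Vdr-/- and 41.6 and 22.2 in wild type. The leading one passed the filter only through the Vdr-/- arrays with IFN-gamma, and the second did not pass it, so the higher values in Vdr-/- support nothing. The largest single genotype difference of a member not resting on the floor was that of Casp4 under both agents, 3.55-fold higher in Vdr-/-. It was followed by the leading Casp12 probe set under IFN-gamma alone and by Ripk3 with calcitriol alone, 2.9-fold lower in Vdr-/-.

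The IFN-gamma effect was also compared between genotypes, again with the untreated arrays as labelled. Limma called 0 of the 7 members and 0% of all tested probe sets, with 635 of all under an unadjusted p of 0.05. The fitted differences, Vdr-/- minus wild type, ran from -0.89 log2 for Ripk3 (95% interval -2.76 to 0.97) to 1.37 log2 for Casp12 (95% interval -1.37 to 4.11), with adjusted p of 0.996 for both. Casp12 passed the filter only through the Vdr-/- arrays with IFN-gamma, which favours a positive value, so nothing is read from it. Without the untreated arrays the Ripk3 value had the opposite sign.

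Genes with a pattern like that of each member were found by the root-mean-square difference between log2 profiles over the 8 arrays, each centred on its own mean, among 16406 probe sets with 1 named gene. Nearest to Casp4, whose own profile had a spread of 0.955 log2, were Tlr3 and Bmyc at 0.324 and 0.327 log2. Tlr3, a sensor of double-stranded RNA, is also in the necroptosis list, and it was under the floor on 3 arrays. Nearest to Ripk3 (spread 1.28 log2) were Ugcg and Psip1 at 0.346 and 0.354 log2, and nearest to Casp12 (1.02 log2) were Racgap1 and Capn1 at 0.402 and 0.423 log2. Fas was nearest to Vtn and Cntfr at 0.155 and 0.221 log2, Casp1 to Rassf5 and Tlr1 at 0.155 and 0.173, Casp8 to Pcyox1 and Ccni at 0.126 and 0.148, and Casp6 to Fyco1 and Uchl5 at 0.126 and 0.127. No member was among the nearest 2 genes of another member. With 16406 candidates for 2 places, this says little about how alike the members are.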

How the data were processed

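The values were deposited as linear probe set intensity signals, already scaled by the authors, since the 2% trimmed mean of each array was 150.07 to 150.08. The software and scaling method were not given in the sources used here. Of 22690 probe sets, 64 controls were set aside. The platform annotation gave 1 gene for 20380 of the others, several for 691 and none for 1555, and symbols were updated through gene IDs.

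Signals were floored at the pooled 25th percentile (15.5) and put on a log2 scale. Testing covered the 18058 probe sets with a signal of at least 59.1, the pooled median, on some array, with 15.5% of their values at the floor. Fits were made in R 4.3.3 by limma 3.58.1 with an intensity trend. The two-sided p-values were adjusted by the method of Benjamini and Hochberg across the whole tested table and called at 0.05. IFN-gamma and genotype were fitted with the pair as a block (3 residual degrees of freedom), and calcitriol and the differences in a fit nested in genotype (2). The fits were tested on simulated data. A gene's brightest probe set leads. In each list at most 4 called genes were named by size of change, besides others named after their values were seen. Members and lists were chosen with earlier results of these data known. Alternatives were other normalization, filters, floors, variance models and designs, and arrays or pairs left out. Figures used Python 3.11.15 and matplotlib 3.10.9.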

Additional observations from a re-analysis of the deposited data

How the results depend on the processing

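The count of members called stayed at 0 for IFN-gamma, genotype, calcitriol in Vdr-/- and both differences under every alternative run. For calcitriol in wild type it was 1 in the main and additive fits and 0 after quantile normalization, without a filter or with a stricter one, with a lower or higher floor, without the intensity trend, without the pair of arrays of high 3'/5' ratio and without the 2 untreated arrays, and 0 to 0 over single arrays left out, which leaves 1 residual degree of freedom. The count of list genes called for IFN-gamma, 7 of 57, was 0 without a filter, 1 without the intensity trend, 0 without the 2 arrays with the highest ratios, 0 without the 2 untreated arrays, 4 in the additive fit and 1 to 5 with a pair left out, and Zbp1 was called in each of these 4 pair-wise fits. Of 625 values of single genes, 533 stayed as in the main fit, called or not called, and did not turn sign (values of 0 among them). Most of these 533 were not called in the main fit either. Another 70 lost the call, 54 for IFN-gamma and 16 for calcitriol in wild type. The other 22 had the opposite sign, none of which passed the test. The opposite signs were as follows. Without the 2 arrays with the highest ratios, the log2 values were -0.23 for Casp8 with IFN-gamma, 0.21 for Casp6 by genotype, -0.07 for Casp12 with calcitriol in wild type, 0.78 for Ripk3 with calcitriol in Vdr-/- and -1.80 for the Casp4 difference in IFN-gamma effect. Without the 2 untreated arrays they were 0.05 for Casp6 and -0.66 for Ripk3 by genotype, 0.42 for Ripk3 with calcitriol in Vdr-/-, and 1.32 for Ripk3 and -0.04 for Casp4 in the difference in IFN-gamma effect. The higher floor gave -0.12 for Ripk3 by genotype and the lower floor 0.05 for Casp12 with calcitriol in Vdr-/-. With pairs left out, genotype values ran from -0.26 to 0.10 for Casp6 and from -0.12 to 0.50 for Casp8 (0.10 and -0.12 without the calcitriol pair) and from -0.66 to 0.82 for Ripk3 (-0.66, and 0.05 for Casp6, without the untreated pair). With single arrays left out, calcitriol in wild type gave -0.90 to 0.23 for Casp1 and -1.86 to 1.02 for Casp4 (the positive values without either wild-type array with IFN-gamma), and calcitriol in Vdr-/- gave -0.92 to 0.56 for Ripk3 (the positive value without either Vdr-/- array lacking IFN-gamma). The cause was not tested. The array pairs that are blocks in the IFN-gamma and genotype fits match arrays by treatment and genotype, and the labels give no replicate numbers.

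Signal over background limits Casp12 and Fas most, whose leading probe sets were under the floor on 4 and 2 of the 8 arrays.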
